A study of Homo sapiens with 2 samples.

Results

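The notch pathway genes followed here were 10: the receptors NOTCH1, NOTCH2, NOTCH3 and NOTCH4, the ligands JAG1, JAG2, DLL1 and DLL4, and the fringe genes LFNG and MFNG. They were chosen by symbol, and all 10 had a row among the 32738 genes of the count table. The cells were nonadherent blood cells made from IPS11, a human induced pluripotent stem cell line, and harvested on day 5 of culture through the endothelial-to-hematopoietic transition (EHT), the step at which endothelium gives rise to blood. Wells were uncoated or carried immobilized VCAM1, DLL4 or DLL4+VCAM1, with 3 wells pooled for each of the 4 coatings. Each pool was stained with 1 of 4 hashtag antibodies (0252, 0253, 0254 and 0255) and all were sequenced as 1 library of 3′ transcript ends. The labels do not say which hashtag was on which coating, so hashtags are given by number only.

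Of 10836 barcodes, 8488 carried 1 hashtag, and 7550 of these had at most 36000 UMIs (unique molecular identifiers, each marking 1 captured transcript), 6000 genes and 18% mitochondrial UMIs. Hashtags 0252 to 0255 gave 2136, 1996, 1847 and 1571 of these cells. The median cell held 18318.5 UMIs. A level below is the gene's UMIs summed over the cells of a group per 1000000 UMIs of that group (CPM), with its exact Poisson 95% interval. Cells of 1 library are not replicates, so no p-values are given, and the intervals cover counting error only. The read-out counts transcript ends and is not scaled to length. Levels are compared between cells for 1 gene or for the sum of a gene family, in which each gene weighs by its UMIs.

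Notch signalling passes between touching cells. A JAG or DLL ligand on the sending cell pulls on a notch receptor of the receiving cell, proteases cut the receptor, and its released inner part binds RBPJ in the nucleus to switch on targets such as HES1. Fringe enzymes add sugars to the receptor and so tune its response to delta against jagged ligands, and notch is known for its roles in blood emergence and in T cell specification. The DLL4 of the coating is added protein and leaves no transcript in these counts.

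Cells were split by marker genes that are not among the 10. The C1Q gate (C1QA, C1QB and C1QC, complement genes of macrophages) required 500 CPM, the ELANE gate (neutrophil elastase) 200, the PF4/PPBP gate (platelet chemokines) 500, the globin gate (HBA1, HBA2, HBE1, HBG1, HBG2 and HBZ) 1000 and the collagen gate (COL1A1, COL1A2 and COL3A1) 1000. Cells in none of these formed the SPINK2 gate at 200 CPM or more of SPINK2, and otherwise the CD34/GATA2 gate when both CD34 and GATA2 had at least 1 UMI. The gates held 2426 CD34/GATA2, 730 SPINK2, 699 C1Q, 139 ELANE, 23 PF4/PPBP, 214 globin and 80 collagen cells. A further 93 cells passed several lineage gates and were kept apart. Most of the 108 cells at or over the PF4/PPBP threshold were among them, as only 23 passed that gate alone. In no gate were 3146 cells (41.7%). Of these ungated cells, 798 held MPO, PRTN3 and AZU1, azurophil granule genes, at 2000 CPM or more.

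Further marker genes were checked, of which CD34 alone was also used in the gating. All 5 macrophage, all 6 early neutrophil and all 6 stromal markers were highest in the C1Q, ELANE and collagen gates, and 4 of 6 were highest in each of the globin and PF4/PPBP gates. Of the 5 progenitor markers listed for the SPINK2 gate only 2, CD34 and HOPX, were highest there, where FLT3 was at 0.759 CPM. HLF, also on that list, was at 1.47 CPM in CD34/GATA2 and 1.45 in SPINK2 cells. Of the 5 listed for the CD34/GATA2 gate, CYTL1, KIT, TAL1, GATA1 and MECOM, 0 were highest there. These last gates are therefore named by their genes alone. CDH5, which defines endothelium, was at 1.79 CPM or less in every gate. Other endothelial markers differed: EGFL7 was at 381 CPM in SPINK2 and 247 in CD34/GATA2 cells, and ESAM at 128 in PF4/PPBP and 81.7 in globin cells. CLDN5 was highest in PF4/PPBP cells (14.7 CPM) and KDR in collagen cells (6.59). In the CD34/GATA2 gate 803 cells (33.1%) rested on exactly 1 UMI of CD34 or of GATA2, and 173 of 730 SPINK2 cells were under 1.25 times the threshold. The collagen gate was uneven over hashtags, with 49 of its 80 cells from 0255, and the ELANE gate held 73, 48, 9 and 9 cells of hashtags 0252 to 0255.

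The promoters of 3 members are shown, because NOTCH1 was the receptor that set the SPINK2 gate apart while NOTCH3 and JAG1 were highest in the collagen gate. Each is the 250 bases before the annotated start in RefSeq (GRCh38.p14), 5′ to 3′ on the gene's strand, which is minus in all of them. Capitals mark a GC box (GGGCGG or, on the other strand, CCGCCC), and neighbouring matches may overlap by 1 base.
NOTCH1, chr9:136546049-136546298: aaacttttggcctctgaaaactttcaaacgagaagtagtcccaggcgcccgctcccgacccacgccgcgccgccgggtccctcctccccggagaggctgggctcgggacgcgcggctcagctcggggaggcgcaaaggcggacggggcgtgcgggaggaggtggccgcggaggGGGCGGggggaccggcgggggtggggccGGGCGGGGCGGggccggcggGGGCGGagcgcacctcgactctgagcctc
NOTCH3, chr19:15200996-15201245: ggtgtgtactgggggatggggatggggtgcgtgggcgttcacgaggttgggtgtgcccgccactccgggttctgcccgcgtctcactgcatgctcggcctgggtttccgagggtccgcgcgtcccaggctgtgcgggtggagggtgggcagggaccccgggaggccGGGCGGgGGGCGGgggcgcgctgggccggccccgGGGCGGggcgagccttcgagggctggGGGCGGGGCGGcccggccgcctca
JAG1, chr20:10674000-10674249: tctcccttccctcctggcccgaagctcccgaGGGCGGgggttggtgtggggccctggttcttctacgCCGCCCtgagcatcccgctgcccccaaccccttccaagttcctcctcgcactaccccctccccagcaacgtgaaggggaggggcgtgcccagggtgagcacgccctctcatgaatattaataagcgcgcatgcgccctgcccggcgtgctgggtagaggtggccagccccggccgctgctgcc

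NOTCH1 held 4 matches, NOTCH3 5 and JAG1 2, and 42.6% of 35116 RefSeq promoters of this length held at least 1. The core letters of the RBPJ motif (TGGGAA or TTCCCA) were found in none of these 3 windows and in 20.8% of all promoters. Among the other members with an entry, NOTCH2, NOTCH4, JAG2, DLL4 and LFNG, a match to these letters occurred in 1 of the 2 LFNG promoters. On the genome used for the counts (hg19, GRCh37), NOTCH1 lies at chr9:139388885-139440500, NOTCH3 at chr19:15269849-15311806, JAG1 at chr20:10618332-10654647 and MFNG at chr22:37865101-37882431, all on the minus strand.

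The question put to the receptors was which cells could receive a notch signal. Receptor UMIs were found in every gate. In PF4/PPBP cells, with 8 of them, no receptor was above the background of free RNA described below. The 4 receptors summed to 40.7 CPM (39.0–42.5) in the CD34/GATA2 gate, 58.9 (55.0–63.0) in SPINK2, 49.2 (44.9–53.8) in C1Q, 50.6 (41.0–61.7) in ELANE, 16.7 (7.23–33.0) in PF4/PPBP, 29.6 (24.7–35.1) in globin and 89.0 (73.0–107) in collagen cells. The CD34/GATA2 and SPINK2 gates together (44.7 CPM) and the C1Q, ELANE, PF4/PPBP and globin gates together (43.2 CPM) did not differ beyond counting error, with a ratio of 1.04 (0.954–1.13). Within hashtags 0252 to 0255 that ratio was 0.905, 0.959, 1.07 and 1.56, and only the interval of 0255 (1.23–1.99) left out 1. The make-up of the latter 4 gates also differed between hashtags, as the ELANE counts above show.

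NOTCH1, the receptor required for T cell specification, gave 3846 UMIs in the kept cells. Its level was 43.9 CPM (40.5–47.4) in SPINK2 cells, 31.1 (27.7–34.9) in C1Q cells and 19.3 (18.1–20.5) in CD34/GATA2 cells. The other gates held 20.3 (14.5–27.8) in ELANE, 15.0 (11.6–19.1) in globin, 14.0 (8.16–22.4) in collagen and 12.6 (4.61–27.3) in PF4/PPBP cells. With the hashtags pooled, the SPINK2 and C1Q gates were apart from each other and from the rest. CD34/GATA2 and ELANE were not apart, and neither were globin, collagen and PF4/PPBP. SPINK2 cells thus held 2.27 times (2.05–2.51) the NOTCH1 of CD34/GATA2 cells, and the ratio was 2.32, 2.24, 2.30 and 2.15 in hashtags 0252 to 0255. In SPINK2 cells the level was nearly level over the hashtags, at 45.3, 42.3, 42.1 and 45.0 CPM. In C1Q cells it was 36.3 CPM (29.7–44) and 37.7 (30.6–45.9) in hashtags 0252 and 0253 and 24.1 (18.4–31.0) and 22.9 (16.3–31.3) in 0254 and 0255. At 5000 UMIs per cell, however, the share of C1Q cells with a NOTCH1 UMI was 13.5%, 14.0%, 13.1% and 10.9%, a narrower spread. NOTCH1 in C1Q over CD34/GATA2 cells was 1.86, 1.99, 1.32 and 1.09 in hashtags 0252 to 0255. The intervals of 0254 (0.977–1.75) and 0255 (0.752–1.55) held 1.

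NOTCH2 gave 1657 UMIs. Its level was 24.7 CPM (16.7–35.3) in collagen and 22.9 (16.7–30.8) in ELANE cells, which were not apart. It was 12.5 (10.4–14.9) in C1Q, 12.2 (11.3–13.2) in CD34/GATA2, 10.5 (7.66–14.0) in globin and 7.59 (6.24–9.15) in SPINK2 cells, and the PF4/PPBP gate held 1 UMI. The order of NOTCH1 and of NOTCH2 therefore ran opposite ways in the CD34/GATA2 and SPINK2 gates, with NOTCH2 in CD34/GATA2 cells 1.61 times (1.31–1.99) its level in SPINK2 cells. Within hashtags 0252 to 0255 that ratio was 1.51, 1.12, 1.42 and 2.38, and the intervals of 0253 and 0254 held 1. The high level went beyond the small ELANE gate: the 798 ungated cells with high azurophil genes held 19.1 CPM (17–21.5), against 9.03 (8.15–9.98) in the other 2348 ungated cells. NOTCH2 shares near-identical sequence with its partial copy NOTCH2NL. Whether the transcript ends counted here fall in the shared part was not tested. NOTCH2NL itself was at 13.6 CPM (8.85–19.9) in ELANE and 11.5 (6.30–19.3) in collagen cells, and both intervals overlapped that of CD34/GATA2 cells at 11.7 (10.8–12.7).

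NOTCH3, a receptor typical of mural and other mesenchymal cells, gave 828 UMIs. It stood at 48.6 CPM (37–62.7) in collagen cells and at 7.40 (6.67–8.19), 6.78 (3.61–11.6) and 5.86 (4.68–7.25) in CD34/GATA2, ELANE and SPINK2 cells, which were not apart as neighbours in that order. C1Q cells held 2.99 (2.00–4.30), globin cells 2.73 (1.41–4.77) and the PF4/PPBP gate 1 UMI. The collagen level was 7.70 times (5.78–10.1) that of all blood gates together. It was alike in the 4 hashtags, at 52.2, 54.4, 45.0 and 48.2 CPM, from 9, 7, 14 and 29 UMIs. CD34/GATA2 cells held 2.47 times (1.69–3.75) the level of C1Q cells. NOTCH4, typical of endothelium, gave 236 UMIs. Its level was 1.81 CPM (1.46–2.21) in CD34/GATA2, 1.59 (1.01–2.38) in SPINK2 and 2.58 (1.67–3.81) in C1Q cells, and no neighbouring gates were apart.

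**Figure D1:**
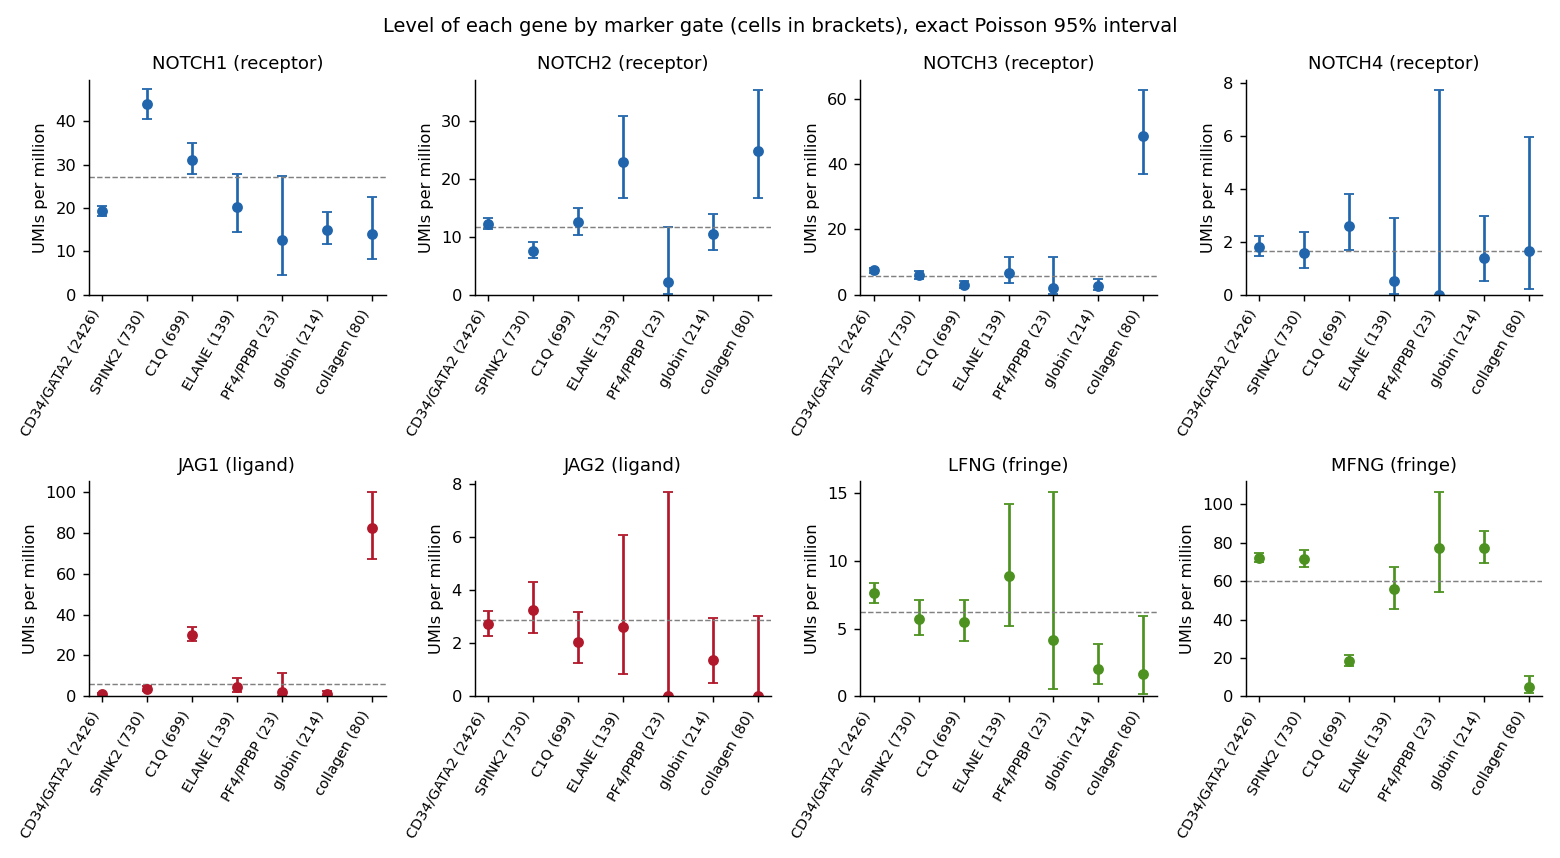
Level of 8 of the 10 genes (CPM, vertical axis from 0 and different in each panel) in the 7 marker gates, with the number of cells of each gate in brackets. Points are levels, bars are exact Poisson 95% intervals and the dashed line is the level over all 7550 cells. NOTCH1 peaks at 43.9 in SPINK2 cells, NOTCH3 at 48.6 and JAG1 at 82.4 in collagen cells, while MFNG falls to 18.6 and 4.94 in C1Q and collagen cells.

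The ligands answer which cells could send the signal. JAG1, a jagged ligand, gave 875 UMIs, and its level was 82.4 CPM (67.0–100) in collagen cells and 30.2 (26.9–33.9) in C1Q cells. The remaining gates held 4.69 (2.14–8.90) in ELANE, 3.79 (2.86–4.94) in SPINK2, 1.35 (1.05–1.71) in CD34/GATA2 and 1.14 (0.369–2.65) in globin cells, and 1 UMI was in the PF4/PPBP gate. Collagen cells held 2.73 times (2.15–3.43) the level of C1Q cells. That ratio ran from 1.83 in hashtag 0252 to 9.90 in 0255, and was 4.39 without hashtag 0252 and 1.43 at 10% mitochondrial UMIs. Collagen cells held 15.6 times (12.4–19.5) that of the blood gates together, a ratio of 6.17 with cells limited to 10% mitochondrial UMIs and of 9.74 with each cell of equal weight. C1Q cells in turn held 22.3 times (17.1–29.4) the level of CD34/GATA2 cells, a ratio of 12.1 without hashtag 0252 and of 5.91 at 10% mitochondrial UMIs. SPINK2 cells held 2.80 times (1.93–4.05) the level of CD34/GATA2 cells, but the ratio was uneven over hashtags 0252 to 0255, at 5.00, 0.976, 2.33 and 5.06. It was 4.51 with the gate thresholds doubled, and it turned to 0.550 at 10% mitochondrial UMIs. That last value came from 62 SPINK2 and 89 CD34/GATA2 cells and has no interval, so counting error may account for it.

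Because collagen cells were few, their part in the whole pool was set beside their number. They were 1.06% of the cells and gave 11.4% of JAG1 UMIs, C1Q cells were 9.26% and gave 33.5%, and CD34/GATA2 cells were 32.1% and gave 7.89%. A further 38.2% came from the ungated cells, which held 5.83 CPM (5.22–6.49).

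JAG1 in C1Q cells differed between hashtags, by 8.53 times (4.76–16.8) from 0255 to 0252, a ratio with too few UMIs to recompute at 10% mitochondrial UMIs. It was 60.1 CPM (51.5–69.8) in hashtag 0252, 20.4 (15.3–26.7) in 0253, 22.1 (16.7–28.7) in 0254 and 7.04 (3.64–12.3) in 0255, from 172, 53, 56 and 12 UMIs. Hashtag 0252 was thus apart from the other 3, and 0255 was below 0253 and 0254. The UMIs were not those of a few cells, since 83 of 220, 35 of 176, 35 of 180 and 7 of 123 cells held at least 1. At 5000 UMIs per cell the shares were 24.2%, 8.72%, 9.66% and 3.36%. The C1Q genes that set the gate were at 2257, 2082, 2072 and 2106 CPM, so that the gate's own genes were spread far less. The 5 macrophage markers summed to 626, 611, 438 and 412 CPM, and the gates' median mitochondrial share was 12.4%, 13.3%, 14.7% and 14.3%; their part in the difference was not tested. Among ungated cells JAG1 followed a like order, with 11.7 CPM in 0252, 5.28 in 0253, 2.87 in 0254 and 2.73 in 0255. In collagen cells the levels of 110 (66.4–172), 70.0 (32.0–133), 96.4 (65.1–138) and 69.8 (50.3–94.3) CPM all overlapped.

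JAG2, the second jagged ligand, gave 409 UMIs. Its levels were 3.24 CPM (2.38–4.31) in SPINK2, 2.73 (2.29–3.22) in CD34/GATA2, 2.61 (0.846–6.08) in ELANE, 2.06 (1.26–3.19) in C1Q and 1.36 (0.501–2.97) in globin cells, and no neighbours in that order were apart. None was found in 80 collagen cells, which allows a share of cells with a UMI of up to 3.75% at 3 cells (4.51% as the exact upper bound), or in the 23 PF4/PPBP cells. DLL1 and DLL4, the delta ligands, were scarcely detected at this depth. DLL1 had 5 UMIs in 4 cells and DLL4 15 UMIs in 8 cells of the 7550. Of the DLL4 UMIs, 8 were in 3 CD34/GATA2 cells, 6 of them in 1 cell, and of the DLL1 UMIs 3 were in 2 SPINK2 cells. Neither had a UMI in ELANE, PF4/PPBP, globin or collagen cells. By hashtag DLL4 gave 3, 6, 2 and 4 UMIs and DLL1 0, 1, 0 and 4, too few to order the hashtags.

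The ligand sum in collagen cells was 10.2 times (8.18–12.6) that of the blood gates, at 82.4 against 8.08 CPM, and it was higher in collagen cells in all 4 hashtags, by 9.29, 10.2, 13.8 and 13.8 times. With cells limited to 10% mitochondrial UMIs the ratio was 4.61. All 100 ligand UMIs of the collagen gate were of JAG1.

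MFNG (manic fringe) gave 8520 of the 9408 fringe UMIs. Its level was 77.5 CPM (54.5–107) in PF4/PPBP, 77.3 (69.3–86.0) in globin, 72.1 (69.8–74.5) in CD34/GATA2 and 71.7 (67.4–76.2) in SPINK2 cells, and these 4 were not apart. ELANE cells held 55.8 (45.7–67.4), C1Q cells 18.6 (16.0–21.5) and collagen cells 4.94 (1.81–10.8), each apart from the gate above it. CD34/GATA2 cells thus held 3.88 times (3.34–4.54) the MFNG of C1Q cells and 14.6 times (6.70–39.8) that of collagen cells, a ratio on 6 UMIs that was 9.18 with thresholds halved and 8.09 with each cell of equal weight. Collagen and C1Q cells, which had the highest levels of JAG1, had the lowest levels of MFNG. Over the 19 gate-by-hashtag sums with at least 20 cells, log2 levels of JAG1 and MFNG had a Pearson r of −0.853, as a description of sums that share 1 library. Of collagen cells only hashtag 0255 reached 20 cells, of ELANE cells only 0252 and 0253, and no PF4/PPBP sum did.

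LFNG (lunatic fringe) gave 888 UMIs and was spread more evenly. It was at 8.86 CPM (5.16–14.2) in ELANE, 7.60 (6.86–8.39) in CD34/GATA2, 5.73 (4.56–7.10) in SPINK2 and 5.47 (4.09–7.15) in C1Q cells, and at 4.19 (0.507–15.1) in PF4/PPBP, 2.05 (0.936–3.89) in globin and 1.65 (0.199–5.95) in collagen cells. CD34/GATA2 cells held 3.71 times (1.93–8.18) the level of globin cells (5.84 with thresholds doubled), so that globin cells were low in LFNG while high in MFNG. The fringe sum was 1.75 times (1.62–1.90) as high in the CD34/GATA2 and SPINK2 gates together as in the C1Q, ELANE, PF4/PPBP and globin gates together, at 79.2 against 45.2 CPM. That ratio was 1.71, 1.67, 2.00 and 1.81 in hashtags 0252 to 0255. When the ELANE gate was widened to all cells high in azurophil genes, an alternative chosen after seeing the data, the ratio was 1.37. By gate the fringe sum was 81.6 CPM in PF4/PPBP, 79.7 in CD34/GATA2, 79.4 in globin, 77.5 in SPINK2, 64.6 in ELANE and 24.0 in C1Q cells. Globin and PF4/PPBP cells were thus not apart from CD34/GATA2 cells, and the lowest of these gates was C1Q.

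A rule of size took the place of a test. A gene was called in a gate when its level was at least 2-fold above or below that of all other gated cells, if it had at least 100 UMIs there, which left 8 of the 10 members and not DLL1 or DLL4. Of 56 pairs of member and gate, 6 were higher (3 with the wider azurophil gate in place of ELANE) and 15 lower (25 with no minimum of UMIs). Dropping the minimum added only DLL1 and DLL4, with 4 and 9 UMIs in gated cells. In SPINK2 cells 1 of 8 members, NOTCH1, was higher, by 2.13 times (1.94–2.34), where 1.18% of 12621 genes were called higher. The ungated cells, with NOTCH1 at 30.5 CPM, were not part of that comparison, so this call holds against the other gated cells only. In C1Q cells JAG1 was higher (10.1% of genes) and NOTCH3 and MFNG were lower (13.5%). In ELANE cells NOTCH2 was higher by 2.00 times (1.45–2.71), just inside the rule (8.26%), and NOTCH4, with 1 UMI, was lower (15.4%). The NOTCH2 UMIs of ELANE cells numbered 26 and 16 in hashtags 0252 and 0253 but 0 and 2 in 0254 and 0255, which had 9 cells each. Collagen cells were higher in NOTCH2, NOTCH3 and JAG1 (13.4%) and lower in JAG2, LFNG and MFNG (20.5%). In CD34/GATA2 cells JAG1 was lower (7.57%) and no member was higher (2.21%). Globin cells were lower in NOTCH3, JAG1 and LFNG (12.7%) and higher in none (3.57%). The PF4/PPBP gate, with 23 cells, was lower in NOTCH2, NOTCH3, NOTCH4, JAG1 and JAG2 (23.8%) and higher in none (7.92%), on 0 or 1 UMI each. No member was lower in SPINK2 cells (7.57%).

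Free RNA can give UMIs in cells that do not make a transcript. As a measure of it, genes that mark 1 lineage were read in the other gates, as a share of their level over all cells. Several of them (COL1A1, COL3A1, C1QA, C1QB and the globin genes) also set the gates. Cells passing several lineage gates were kept apart, so the gating itself caps these shares and the background may be too low. Collagen-gate genes (COL1A1, COL3A1, TAGLN and ACTC1) stood in the blood gates at 0.0679 to 0.152 of the pooled level. The highest such share in each gate, multiplied by a member's pooled level, set the background for it. JAG1 in globin cells, with an interval starting at 0.369 CPM, was not above its background of 0.515, and neither were NOTCH1 (background 9.73), NOTCH4, LFNG and MFNG (21.5) in collagen cells, nor NOTCH4 in ELANE cells, nor any member but MFNG in PF4/PPBP cells. The background in the collagen gate was set by macrophage genes, CD14, C1QA and C1QB, which stood there at 0.359 of the pooled level. The levels of NOTCH2, NOTCH3 and JAG1 in collagen cells and of NOTCH1, NOTCH2, NOTCH3, JAG1, LFNG and MFNG in C1Q cells were above the background set in this way.

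To set cells of different depth side by side, each was thinned at random to 5000 UMIs, which left out 68 shallower cells. A receptor UMI was then found in 17.8% of CD34/GATA2, 23.9% of SPINK2, 19.8% of C1Q, 23.7% of ELANE, 8.70% of PF4/PPBP, 11.8% of globin and 36.1% of collagen cells. A ligand UMI was found in 2.02%, 3.30%, 13.8%, 2.96%, 0%, 0.472% and 33.3% of the same gates. Fringe UMIs were found in 32.2%, 31.3%, 9.97%, 20%, 34.8%, 33.5% and 2.78%. Before thinning, a ligand UMI was found in 7.09% of CD34/GATA2 cells at a median depth of 20253 UMIs, in 5.14% of globin cells at 19763, in 25% of C1Q cells at 12669 and in 55.0% of collagen cells at 14598.5. That share was 11.6% in SPINK2 cells at 19405.5 UMIs and 10.1% in ELANE cells at 12532. C1Q and collagen cells thus had the highest ligand shares, at a lower median depth than every other gate but ELANE.

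**Figure D2:**
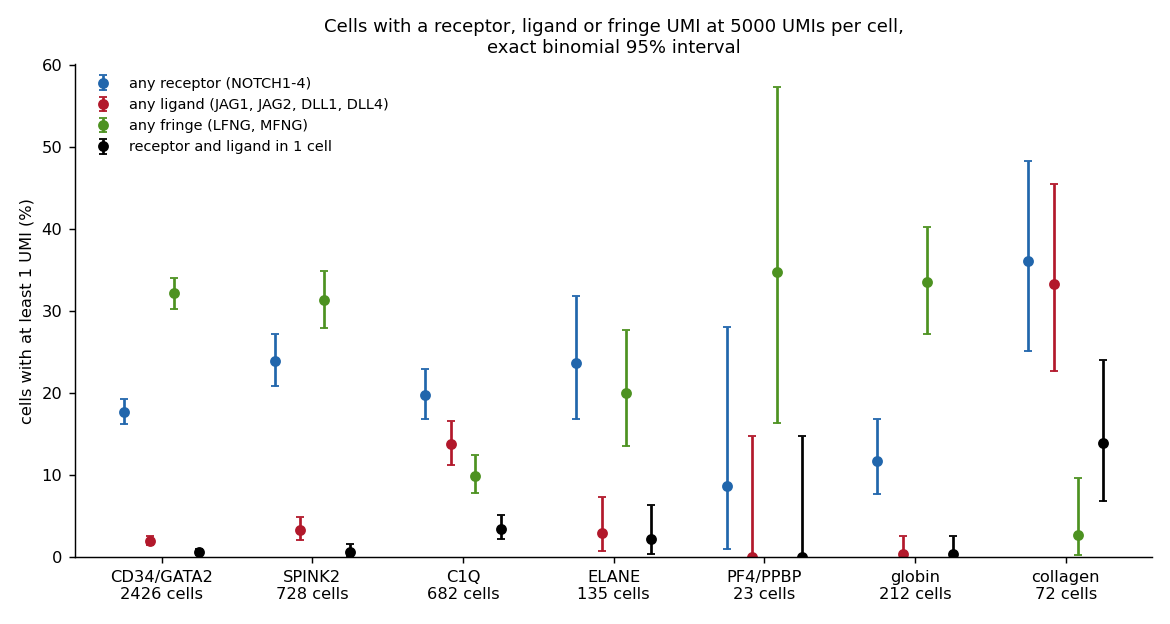
Percent of cells of each marker gate with at least 1 UMI of a receptor, a ligand, a fringe gene, or of both a receptor and a ligand, after every cell was thinned to 5000 UMIs. Points are shares and bars are exact binomial 95% intervals. Ligand shares are 13.8% in C1Q and 33.3% in collagen cells and at most 3.30% in the other gates, where receptor shares run from 8.70% to 23.9%.

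Some cells held both a receptor and a ligand. At 5000 UMIs this was 13.9% of collagen cells (10 of 72), 3.52% of C1Q cells (24 of 682), 0.618% of CD34/GATA2 cells (15 of 2426) and 0.687% of SPINK2 cells (5 of 728). The shares that would arise if the 2 were held independently were 12%, 2.73%, 0.359% and 0.788%. A receptor and a fringe gene were held together by 5.44% of CD34/GATA2 and 8.10% of SPINK2 cells, against 5.71% and 7.49% if independent.

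Over all cells of a hashtag, receptor sums were 48.8, 44.9, 43.9 and 47.1 CPM in hashtags 0252 to 0255, a ratio of highest to lowest of 1.11 (1.04–1.19). Ligand sums were 13.3, 8.11, 7.38 and 6.98 CPM, a ratio of 1.90 (1.62–2.25), which was 1.22 among the 736 cells with at most 10% mitochondrial UMIs. Fringe sums were 72.1, 68.5, 63.4 and 58.1 CPM, a ratio of 1.24 (1.17–1.32). Of the 8 members with enough UMIs, 3 were at least 1.5-fold apart between the highest and lowest hashtag, where 17% of 13489 genes were. They were JAG1 (2.46, 0252 over 0255), NOTCH4 (1.89, 0255 over 0252) and NOTCH3 (1.89, 0255 over 0253). Hashtags also differed in how many cells of each gate they held, so levels over all cells mix make-up and level within a gate, and the levels within gates are given beside them.

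Without C1Q cells, JAG1 was 6.28, 3.85, 3.20 and 3.92 CPM in hashtags 0252 to 0255, and without C1Q and collagen cells it was 5.80, 3.61, 2.29 and 2.40. In CD34/GATA2 cells, the largest gate, NOTCH3 was 7.19 CPM (5.92–8.66), 5.40 (4.24–6.78), 7.79 (6.36–9.45) and 10.4 (8.32–12.7), so that 0255 was above 0253 by 1.92 times (1.39–2.65). The stromal marker sum in those cells was 22.9, 14.7, 21.9 and 27.5 CPM, in a similar order; its part in the difference was not tested. MFNG in CD34/GATA2 cells was 79.2 (74.8–83.7), 73.6 (69.2–78.3), 67.9 (63.5–72.5) and 63.4 (58.2–69.0) CPM, with 0252 above 0255 by 1.25 times (1.13–1.38), or 2.13 times at 10% mitochondrial UMIs, where the gate held 89 cells, while in SPINK2 cells it was 73.1, 69.3, 75.8 and 67.6 with overlapping intervals.

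**Figure D3:**
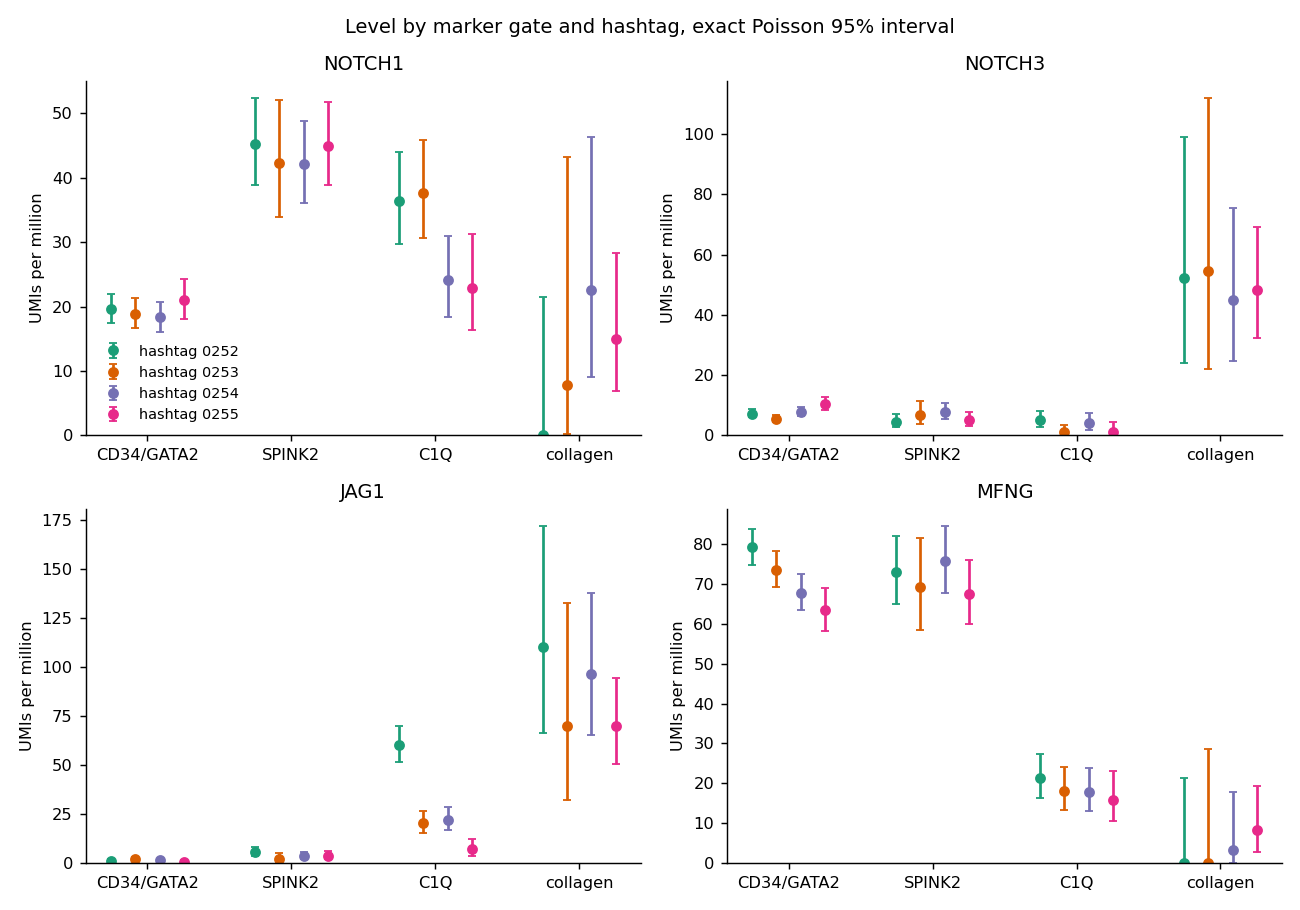
Levels of NOTCH1, NOTCH3, JAG1 and MFNG (CPM, axes from 0) in 4 marker gates, with 1 point for each of the 4 hashtags and exact Poisson 95% intervals. JAG1 in C1Q cells runs from 7.04 in hashtag 0255 to 60.1 in 0252, while NOTCH1 in SPINK2 cells stays between 42.1 and 45.3.

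The genes most like each member over the 19 gate-by-hashtag sums were sought among 8879 genes with at least 1000 UMIs. For JAG1 they were CLN8, LPP and TWSG1 (r of 0.915, 0.907 and 0.895). For MFNG they were HMGA1, DUT and DKC1 (0.969, 0.953 and 0.951), for NOTCH1 S100Z, RPS6KA4 and NRSN2 (0.860, 0.851 and 0.843) and for NOTCH2 CD46, SEC24D and YME1L1 (0.888, 0.874 and 0.859). For NOTCH3 they were CKAP4, HMGA2 and HOMER3 (0.878, 0.861 and 0.853), and for LFNG PCK2, BAIAP2-AS1 and LPCAT2 (0.867, 0.846 and 0.836). These are Pearson correlations of log2 levels with a pseudocount of 1 CPM, and the sums share 1 library. They hold no PF4/PPBP cells, and of collagen cells only those of hashtag 0255.

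The rest of the pathway was read by role over 34 other genes, of which 30 had enough UMIs. By the 2-fold rule 2 were higher and 1 lower in CD34/GATA2 cells, 0 and 2 in SPINK2, 3 and 3 in C1Q, 4 and 8 in ELANE, 3 and 7 in PF4/PPBP, 2 and 3 in globin and 4 and 2 in collagen cells, against the shares of all genes given above. Their median log2 fold was between −0.27 in globin and 0.21 in ELANE cells, where that of all genes was −0.17 and −0.04. Of 9 genes for the proteases that cut the receptor, with their subunits, 0 were called in CD34/GATA2 or C1Q cells. Of all genes, 2.21% were higher and 7.57% lower in CD34/GATA2 cells, and 10.1% and 13.5% in C1Q cells. In each other gate at most 1 of the 9 was higher and at most 1 lower. ADAM10, which cuts the receptor after ligand binding, was higher in globin cells (2.24 times), and PSEN2, a catalytic subunit of gamma-secretase, was lower in ELANE (0.356) and collagen cells (0.340).

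Among the nuclear genes, RBPJ, the DNA-binding partner of notch, was 2.18 times as high in C1Q cells as in the other gated cells, and MAML2, a coactivator, 5.39 times. NUMB, which opposes notch in the receiving cell, was also higher there (2.30). MAML2 was high in collagen cells as well (10.4) and low in CD34/GATA2 cells (0.234). POFUT1, which puts on the first sugar that fringe enzymes extend, was higher in ELANE (2.47) and collagen cells (2.06), and RFNG, the remaining fringe gene, was higher in collagen cells (2.42). DLK1, an atypical ligand-like protein, was at 386 CPM over all cells, and was higher in CD34/GATA2 (2.38) and globin cells (2.85) and lower in SPINK2 (0.182) and C1Q cells (0.0649). DLL3, which acts on receptors within its own cell, was higher in CD34/GATA2 cells (2.46).

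Of 6 target genes, HES1, HES4, HEY2, DTX1 and NRARP had enough UMIs. In SPINK2 cells DTX1 (10.5 times) and HEY2 (3.66 times) were higher (1.18% of genes) and none was lower (7.57%). Collagen cells were higher in HES4 (15.2), HEY2 (3.51) and HES1 (2.45), where 13.4% of genes were, and lower in DTX1 (20.5%). HEY2 in collagen cells was at 4.12 CPM (1.34–9.61) and DTX1 at 0 (0–3.04). In ELANE cells all 5 were lower (15.4% of genes), on few UMIs. DTX1 was at 0 CPM (0–1.92) there, HEY2 at 0.521 (0.0132–2.90) and HES4 at 1.56 (0.322–4.57), where 3 UMIs give 1.56 CPM. In C1Q cells HES1 (0.0870), HES4 (0.365) and HEY2 were lower (13.5% of genes) and none was higher (10.1%). HES1 was higher in globin cells (2.73, with 3.57% of genes). DTX1 was lower in CD34/GATA2 (0.0972, with 7.57%) and globin cells (0.100, with 12.7%). Over all cells of hashtags 0252 to 0255, DTX1 was at 0.520, 0.884, 2.42 and 7.82 CPM and HES4 at 4.73, 4.21, 15.8 and 28.9. Gates differed in their share of each hashtag, so these folds mix gate and hashtag.

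**Figure D4:**
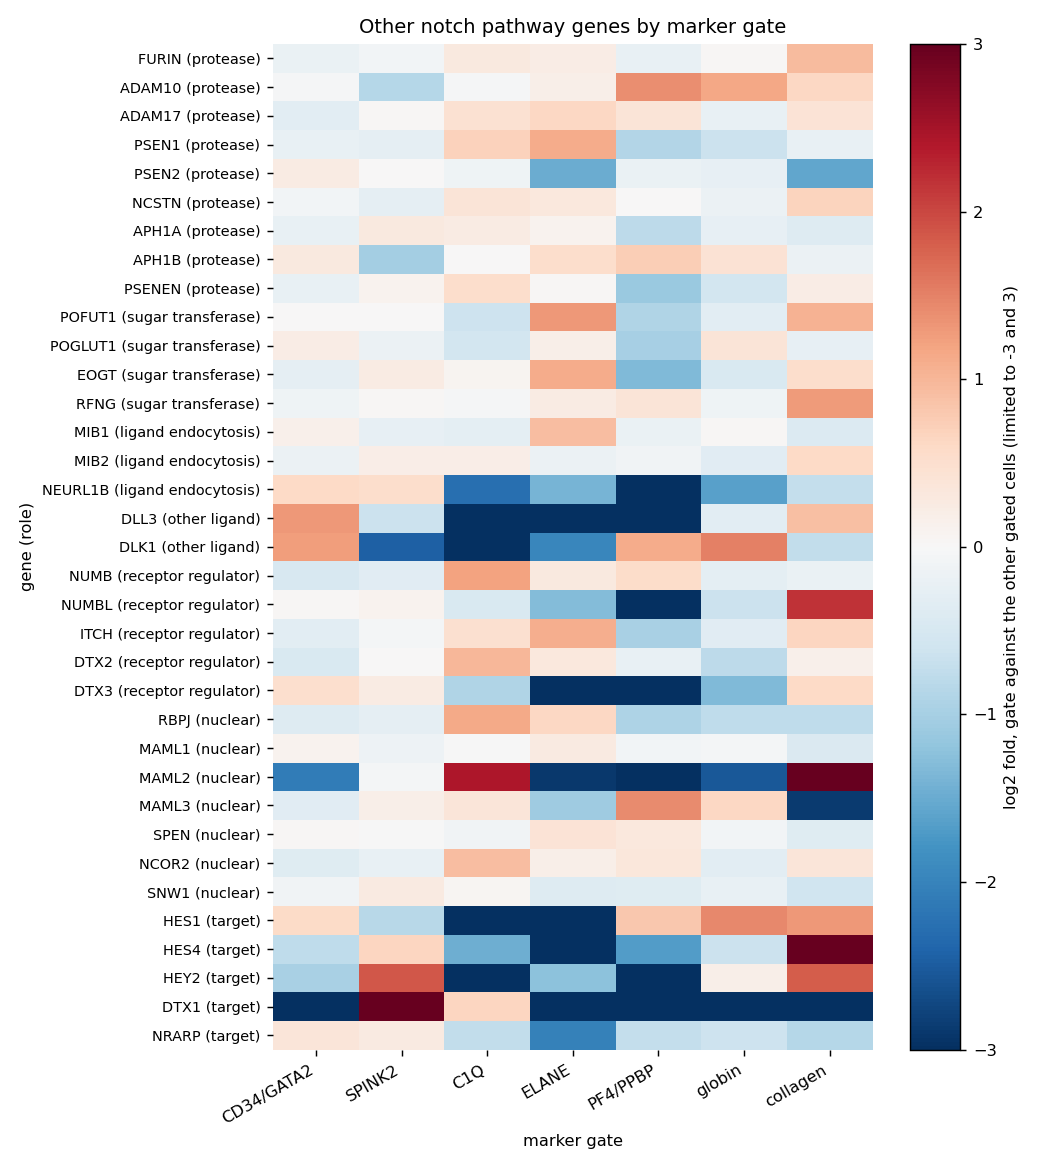
Log2 fold of the 30 other pathway genes and 5 target genes in each marker gate against the other gated cells, as colour limited to −3 and 3, with each gene's role in brackets. Red is higher and blue lower; MAML2 and RBPJ are red in the C1Q column, and DTX1 and HEY2 in the SPINK2 column.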

How the data were processed

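The data are 1 droplet library of polyadenylated RNA (10x 3′ v3.1 chemistry) with its hashtag library, from 4 pools of day 5 cells. Per the submitters' processing notes, reads were processed with Cell Ranger 6.0.1 and hg19. The authors deposited raw UMI counts per gene and barcode and 1 hashtag call per barcode; calls of 1339 doublets and 1009 negatives were taken from that file and left out. No normalized values were used. Per hashtag, 28522216 to 40416478 UMIs were analysed in kept cells, which sets the counting intervals given.

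The members and gene lists were chosen with earlier results of these data known. All 10 members were named, with the other pathway genes of a fixed list and the 3 genes most like each member. UMIs were summed per gate and hashtag with Python 3.11.15, numpy 2.4.6, scipy 1.17.1 and pandas 2.3.3. Levels have exact Poisson, shares Clopper-Pearson and ratios exact conditional binomial 95% intervals. Genes with fewer than 100 UMIs in gated cells were not compared. A gene of the marker lists is not reported here and was left out of the sums. The sums and intervals were tested on simulated counts. Alternatives changed the gate thresholds, cell limits, depth and weighting, gates, hashtags kept, and doublets within a hashtag, which Scrublet (scanpy 1.11.5, expected rate 6%) called in 63 of the kept cells and which stayed in the values reported.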

Additional observations from a re-analysis of the deposited data

Results flagged for a closer look

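Barcodes outside the cells described were read for the same genes, with the same limits on UMIs, genes and mitochondrial share, because a signal there lies outside the comparisons made. In 809 barcodes called negative for every hashtag the receptor sum was 42.2 CPM, the ligand sum 3.84 and the fringe sum 71.2, each above the 0.235 CPM that 3 UMIs would give. In 834 barcodes called doublet the sums were 47.6, 10.6 and 64.1 CPM, above 0.163. The cells with 1 hashtag held 46.2, 9.18 and 66.2 CPM. The ligand sum of the negative barcodes (2.84–5.07) was below that of the kept cells (8.68–9.69), with JAG1 at 2.04 CPM (1.33–2.98) against 6.16. The other sums were near those of the kept cells.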

How the results depend on the processing

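The ratios of single genes between gates were chosen after values were seen. Of all ratios recomputed, the JAG1 ratio of SPINK2 over CD34/GATA2 cells reversed, to 0.550 at 10% mitochondrial UMIs. It rested on 62 and 89 cells there and has no interval. The receptor ratio of the CD34/GATA2 and SPINK2 gates over the other blood gates, whose interval held 1, was below 1 under 4 of 13 alternatives. The other gate ratios and the hashtag ratios of single genes kept their direction. Limited to 10% mitochondrial UMIs, which left 736 of 7550 cells, the receptor ratio was 0.829, the ligand ratio of collagen over blood gates 4.61, and the ratios of highest over lowest hashtag 1.34 for receptors and 1.22 for ligands. Thinned to 5000 UMIs, the ligand gate ratio was 7.99, the fringe ratio of the same gates 1.99, and the hashtag ratios 1.23 and 2.30. With each cell of equal weight the ligand gate ratio was 7.24. With an azurophil sum in place of ELANE, chosen after seeing the data, the receptor ratio was 0.928, the fringe ratio 1.37, and 3 pairs of member and gate were at least 2-fold higher. With no minimum of UMIs 25 pairs were lower and 9 higher, where the only genes added were DLL1 and DLL4, with 4 and 9 UMIs in gated cells. The cause of the other shifts was not tested. Leaving out each hashtag in turn gave receptor ratios of 0.964 to 1.11, ligand ratios of 9.15 to 12.1, fringe ratios of 1.69 to 1.79, and 5 to 6 pairs higher and 16 to 18 lower; the counts were added after seeing the data. No paired analysis was possible because the series is 1 library without replicate numbers. At 3 UMIs or fewer no ratio was formed, so at 10% mitochondrial UMIs the hashtag differences of JAG1 in C1Q and NOTCH3 in CD34/GATA2 cells, NOTCH3 over C1Q and LFNG over globin cells were not checked, nor were LFNG over globin and MFNG over collagen cells when thinned, or the latter without hashtag 0255. Depth limits DLL1, DLL4, NOTCH4 and all members of the PF4/PPBP gate, and free RNA limits low levels.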

Other observations

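The 3146 ungated cells held NOTCH1 at 30.5 CPM (29.1–32.0), NOTCH3 at 4.26 (3.74–4.83), JAG2 at 3.32 (2.86–3.83) and MFNG at 52.7 (50.9–54.6). Of these, the 798 cells with high azurophil genes differed from the other 2348 in NOTCH4, at 0.668 CPM (0.321–1.23) against 1.77 (1.39–2.22), and in LFNG, at 8.29 (6.89–9.88) against 4.89 (4.25–5.61). NOTCH1 was 32.8 (29.9–35.8) against 29.7 (28.1–31.4) in the same cells, with overlapping intervals. The 93 cells that passed several lineage gates held MFNG at 68.9 CPM (57.0–82.5) and JAG1 at 5.26 (2.40–9.98). Most of the cells over the PF4/PPBP threshold were among them. Their NOTCH1 was at 29.2 CPM (21.7–38.5) and their receptor sum at 44.4 (35.0–55.6), against 12.6 and 16.7 in the PF4/PPBP gate. The 6 markers listed for that gate summed to 1389 CPM in these cells and 1072 in the gate, so its levels describe a minority of such cells.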
